A study of Mus musculus with 6 samples.

Results

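The ADAM, ADAMTS and ADAMTS-like genes encode metalloproteinases of the cell surface and the extracellular matrix, together with relatives that lack the protease domain. Members were all genes in the count table whose symbol follows the family pattern Adam, Adamts or Adamtsl plus a number and at most 1 letter. This gave 58 of 27179 genes, of which 34 were ADAM, 19 ADAMTS and 5 ADAMTS-like genes. Expression was measured by bulk RNA sequencing in cancer-associated fibroblasts (CAFs) from 3 mammary tumors of raGFP-Wnt1 female mice. These mice carry a Wnt1 transgene under the MMTV promoter, which is active in mammary epithelium, on an FVB/NJ background, and were crossed to C57BL/6 mice with a nuclear H2B-GFP reporter knocked into 1 copy of Pdgfra. Both groups therefore carry the transgene and the reporter, and both hold only GFP+ cells, that is, cells with an active Pdgfra locus. Cells of each tumor were sorted into a CD34 negative and a CD34 positive fraction, which gave 3 libraries per group, with no treatment and with no age given in the sources used here. The comparison asks how expression differs between the CD34 negative and the CD34 positive CAFs of the same tumors.

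ADAM proteins span the membrane and shed the outer parts of other membrane proteins, such as growth factor precursors, Notch receptors and adhesion molecules. ADAMTS proteins are secreted, carry thrombospondin repeats that hold them in the matrix, and include the enzymes that trim procollagen and those that cut the large proteoglycans versican and aggrecan. ADAMTS-like proteins resemble the non-catalytic region of ADAMTS proteins and bind the matrix, several of them at fibrillin microfibrils. In fibroblasts these families take part in matrix assembly and turnover and in the release of membrane-bound signals.

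The families differ in the zinc-binding site of the protease, in which 3 histidines hold the catalytic metal. The site was searched in the coding sequences of the GENCODE M21 annotation (GRCm38) as histidine and glutamate, any 2 residues, histidine, any 2 residues, a glycine, asparagine or serine, any 2 residues, and histidine. It was found in 40 of the 58 genes, comprising 21 of the 34 ADAM genes, all 19 ADAMTS genes and 0 of the 5 ADAMTS-like genes. The residue in the eighth position of the site was glycine in 13 ADAMTS genes, asparagine in 5 (Adamts1, Adamts4, Adamts9, Adamts15 and Adamts20) and serine in 1 (Adamts8). The coding strand of the site is shown for 9 of the 10 members that hold it and that differed between the fractions, to set side by side the catalytic core of the enzymes described below, with the 3 histidine codons and the eighth codon in capitals:
Adamts2: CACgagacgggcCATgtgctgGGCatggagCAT
Adamts14: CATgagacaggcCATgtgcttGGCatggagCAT
Adamts1: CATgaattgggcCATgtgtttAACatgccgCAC
Adamts4: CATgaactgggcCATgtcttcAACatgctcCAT
Adamts5: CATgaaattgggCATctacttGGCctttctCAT
Adamts7: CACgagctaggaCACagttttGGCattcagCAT
Adamts6: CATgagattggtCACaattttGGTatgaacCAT
Adamts16: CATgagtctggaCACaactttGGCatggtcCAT
Adam33: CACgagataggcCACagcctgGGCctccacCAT

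All 9 sites are coding exon sequence. That of Adam33 lies within exon 11, at chr2:131055130-131055162 on the minus strand. In the ADAMTS genes shown the site is split by an exon junction, for example between exon 7 (chr11:50775403-50775419) and exon 8 (chr11:50776119-50776134) of Adamts2, on the plus strand. In Adamts1 it is split between exon 3 (chr16:85799536-85799545) and exon 4 (chr16:85799191-85799213), on the minus strand. Adamts19, the other of the 10, also holds the site, but its sequence is not shown here. Adam22, Adamtsl4 and Adamtsl5, which also differed between the fractions, held no match to the site.

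Library totals ranged from 16238059 to 86609267 counts, and the members took between 0.437% and 0.518% of them. Libraries are named negative or positive 1, 2 and 3 after their fraction and tumor, and sets of 3 values below follow that order. Cd34 itself had a mean CPM, the count scaled to the size of the library, of 74.3 in the negative and 948 in the positive libraries. The 5 fibroblast markers (Dcn, Lum, Pdgfra, Col1a2 and Igfbp5) summed to between 23891 and 39368 CPM in every library. Col1a2 alone gave between 16358 and 28760 CPM of this sum, and Dcn and Lum were lower in the negative fraction in the fit with the tumor as a block (unblocked log2 fold changes of -1.18 and -0.79, adjusted p = 0.0015 and 0.0140 in limma-voom with the block). The pericyte markers Rgs5 and Mcam summed to between 41.5 and 49.7 CPM in the negative and between 4.23 and 17.6 CPM in the positive libraries. Schwann cell markers also summed higher in the negative libraries (4 genes, 14.8 to 22.0 against 7.20 to 12.1 CPM). Muscle markers did so too (4 genes, Myf5 at 0, 2.97 to 13.3 against 1.52 to 1.86 CPM), but through Des. Des had 2.85, 4.63 and 13.1 CPM in the negative and 0.743, 1.39 and 1.20 CPM in the positive libraries. Acta1 was not higher (unblocked log2 fold change -0.35). Keratinocyte markers summed lower (2 genes, 1.05 to 3.85 against 7.11 to 10.8 CPM). Epithelial (46.8 to 140 against 16.3 to 128 CPM), endothelial (1.71 to 14.4 against 2.12 to 14.8 CPM), macrophage (12.9 to 16.2 against 8.97 to 15.6 CPM) and leukocyte markers (0.516 to 2.15 against 1.30 to 6.31 CPM, Nkg7 at 0) overlapped between the groups. Within tumors, however, the epithelial sum was higher in each negative library (140, 115 and 46.8 against 128, 75.5 and 16.3 CPM). The leukocyte sum was lower in each (0.516, 2.15 and 1.27 against 1.30, 6.31 and 3.67 CPM). The endothelial and macrophage sums had no common direction over the tumors. The part of any of these cell types in the differences below was not tested. In bulk samples, fewer cells of a type and less RNA per cell cannot be told apart. Negative library 3 stood apart, with counts for the fewest genes (14314) and correlations of 0.837 to 0.883 with the other libraries.

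Of the 58 members, 38 passed the filter on low counts, comprising 15 ADAM, 18 ADAMTS and all 5 ADAMTS-like genes. Levels between genes are compared as RPKM, which is CPM divided by gene length in kilobases and averaged over the 6 libraries. ADAMTS genes held between 64.4% and 75.7% of the summed RPKM of the members in each library. The highest level was that of Adamts1 at 226 RPKM, followed by Adamts2 at 199, Adam9 at 66.2, Adamts4 at 60.2, Adamts12 at 56.6, Adamts5 at 39.6 and Adam19 at 38.2 RPKM. The ADAMTS-like genes were led by Adamtsl1 at 17.9 and Adamtsl5 at 17.2 RPKM. The order is a description: over the 6 libraries Adamts1 ranged from 125 to 342 RPKM and Adamts2 from 109 to 332, so their ranges overlapped, whereas Adam9 stayed below both, from 53.0 to 75.1 RPKM. Each further neighbour among these 7 genes overlapped with the gene before it.

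**Figure D1:**
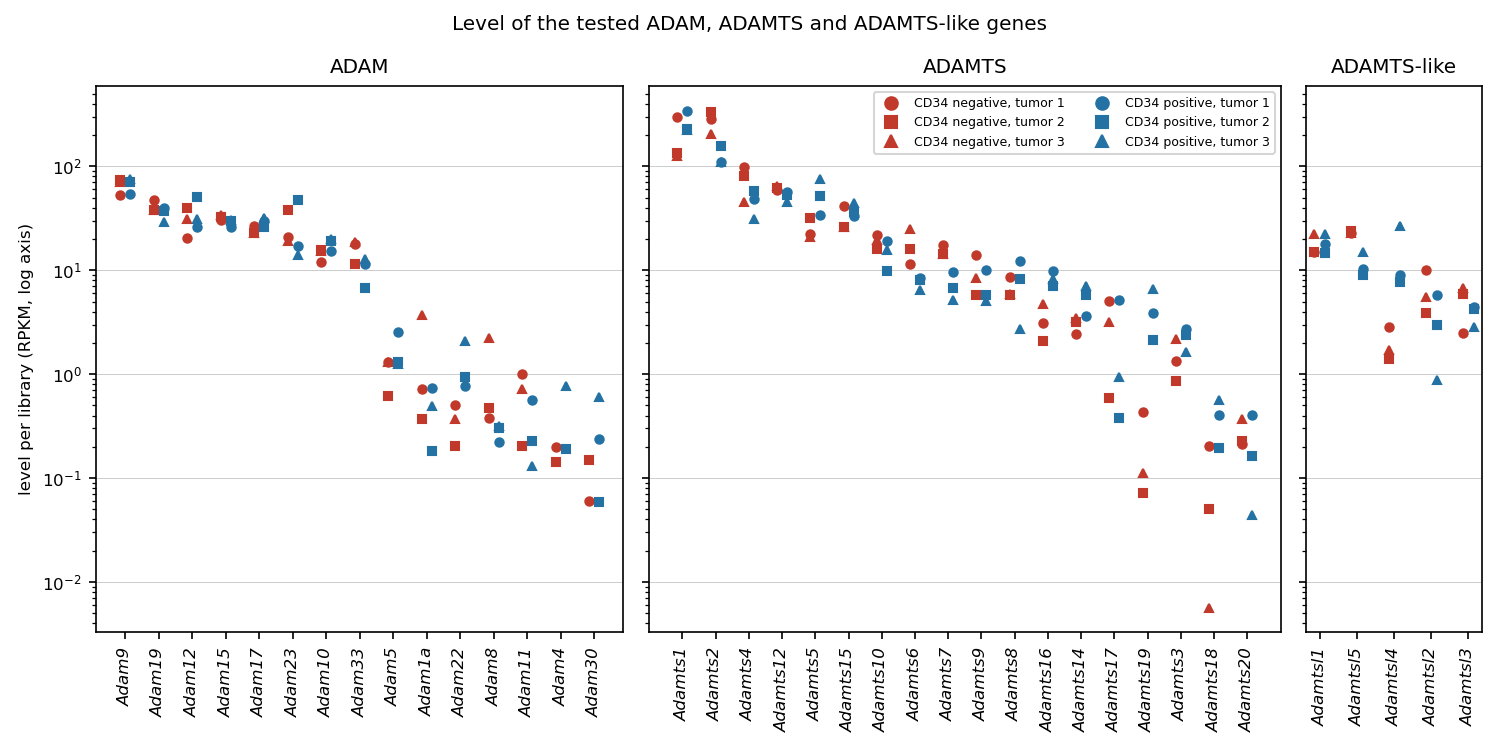
Level of each of the 38 tested members in each library (RPKM, log axis), ordered by mean level within each family, with CD34 negative and CD34 positive libraries marked apart and tumors 1, 2 and 3 by shape. Adamts1 and Adamts2 stand at the top with means of 226 and 199 RPKM, and values of 0 (Adam4 in negative library 3 and positive library 1, Adam30 in negative library 3) cannot be drawn on the log axis.

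The fractions were compared with limma-voom, in which a positive log2 fold change means a higher level in CD34 negative CAFs. Fold changes are given with their standard error, and p-values were adjusted by the Benjamini-Hochberg method over all 14855 genes tested. The study's methods name no term for the tumor and do not say whether one was used, and the fit without it is called the unblocked fit. Since both fractions came from the same tumors, the fit with the tumor as a block is given beside it. The unblocked fit called 0 of the 38 tested members at an adjusted p under 0.05, where it called 0.121% of all genes. At an unadjusted p under 0.05 it held 12 members, 6 in each direction, against 14.3% of all genes. Without the block, edgeR's quasi-likelihood test also called 0 members and had 10 at an unadjusted p under 0.05, against 12.5% of all genes. DESeq2 without the block called 9 members, against 4.70% of all genes. The blocked fit called 13 members, or 34.2% of those tested, against 8.57% of all genes. Of the 13, 6 were higher in the CD34 negative fraction, where 4.32% of all genes were called, and 7 were lower, where 4.25% of all genes were called. The higher members were Adamts2, Adamts4, Adamts6, Adamts7, Adamtsl5 and Adam33, and the lower members were Adamts1, Adamts5, Adamts14, Adamts16, Adamts19, Adam22 and Adamtsl4.

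By family, the blocked fit called 9 of 18 ADAMTS genes, or 50% (4 higher, 5 lower), against 8.57% of all genes. It called 2 of 15 ADAM genes, or 13.3% (1 higher, 1 lower), which is near the share of all genes. Of the 5 ADAMTS-like genes it called 2, or 40% (1 higher, 1 lower). The negative libraries all lay above the positive ones in 7 tested members and all below in 6, against 10.4% and 10.0% of all genes. The median log2 fold change of the members was 0.12, against -0.03 over all genes. Members that changed thus went in both directions. Calls by "higher" and "lower" refer to the blocked fit throughout. In edgeR's test with the block, 6 of the 13 remained below an adjusted p of 0.05 (Adamts2, Adamts7, Adamtsl5, Adamts16, Adamts19 and Adamtsl4), against 3.87% of all genes. Blocked fits that leave out 1 tumor rest on few libraries, so their p-values lean mainly on the spread shared over all genes. They can fall as data are removed. For Adamts5 the limma-voom adjusted p was 0.0170 with all tumors and 5.48e-06 without tumor 2. Such p-values are given below as a description.

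**Figure D2:**
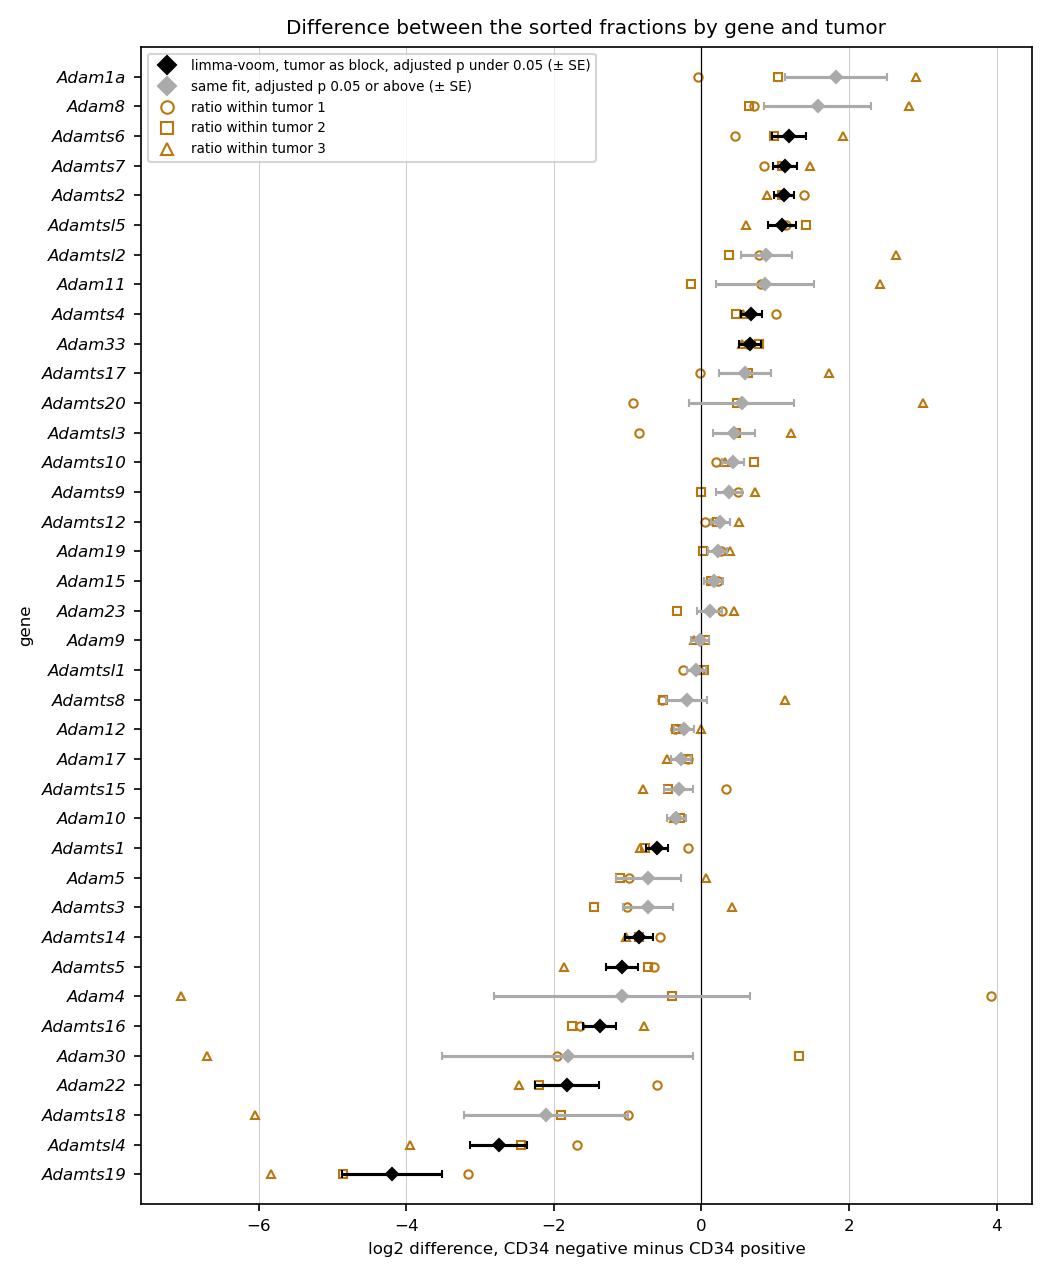
Log2 difference between CD34 negative and CD34 positive CAFs for the 38 tested members: diamonds give the blocked fit with its standard error (black where the adjusted p is under 0.05), and open symbols give the ratio within tumors 1, 2 and 3. Black diamonds lie on both sides of 0, from -4.19 for Adamts19 to 1.18 for Adamts6.

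The procollagen N-proteinases cut the amino-terminal propeptide from fibrillar procollagens. Adamts2 (gene 216725, chr11:50602085-50807573), the best-studied of them, reached 1065, 1243 and 762 CPM in the negative and 408, 582 and 411 CPM in the positive libraries. Every negative library lay above every positive one. The log2 fold change was 1.14 ± 0.24 in the unblocked fit (adjusted p = 0.0975) and 1.12 ± 0.14 in the blocked fit (adjusted p = 0.0020), with ratios of 1.38, 1.09 and 0.89 within tumors. Its relative Adamts14 (gene 237360, chr10:61197112-61273419), at 4.24 RPKM against 199 for Adamts2, went the other way. It measured 12.6, 16.5 and 18.0 CPM in the negative and 18.6, 29.7 and 36.5 CPM in the positive libraries, without overlap but with the nearest values close to each other. This gave a log2 fold change of -0.91 ± 0.27 unblocked (adjusted p = 0.188) and -0.85 ± 0.19 blocked (adjusted p = 0.0246), and this call was lost without tumor 2 (-0.86, adjusted p = 0.151). Adamts3, which also processes the lymphatic growth factor VEGF-C, stood at 10.3, 6.60 and 16.7 CPM against 20.7, 18.1 and 12.5 CPM and did not pass (-0.72 ± 0.34 blocked, adjusted p = 0.247). Without tumor 3, in which its ratio had the opposite sign, Adamts3 had a blocked log2 fold change of -1.26 (adjusted p = 0.00426). Adamts2 made up between 97.3% and 98.8% of the summed RPKM of the 3 genes in the negative and between 92.7% and 95.1% in the positive libraries.

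The proteoglycanases cleave versican, aggrecan and related proteoglycans. Of 7 tested, 1 was higher and 2 were lower in CD34 negative CAFs, against 4.32% and 4.25% of all genes. Adamts4 (gene 240913, chr1:171250129-171262267), also called aggrecanase-1, measured 360, 295 and 167 CPM in the negative and 179, 213 and 113 CPM in the positive libraries. The groups overlapped, but the negative library was the higher one in each tumor. Its log2 fold change was 0.69 ± 0.33 unblocked (adjusted p = 0.394) and 0.68 ± 0.14 blocked (adjusted p = 0.0201); without tumor 1 it was 0.52 (adjusted p = 0.0718).

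Adamts5 (gene 23794, chr16:85858157-85901125), aggrecanase-2, showed the reverse, at 179, 258 and 170 CPM in the negative and 278, 424 and 615 CPM in the positive libraries, without overlap. Its log2 difference came to -1.05 ± 0.31 unblocked (adjusted p = 0.183) and -1.07 ± 0.22 blocked (adjusted p = 0.0170), and the ratio was widest in tumor 3 (-1.86). Adamts1 (gene 11504, chr16:85793827-85803113) neighbours Adamts5 at a distance of 55.0 kb, with 0 protein-coding genes between them. It had 1466, 660 and 611 CPM in the negative and 1670, 1122 and 1092 CPM in the positive libraries. The groups overlapped through negative library 1, and the negative library was the lower one in each tumor. Its log2 fold change of -0.63 ± 0.35 unblocked (adjusted p = 0.454) and -0.60 ± 0.15 blocked (adjusted p = 0.0427) had the highest adjusted p of the 13 calls, and the call was lost without tumor 2 (-0.53, adjusted p = 0.237) or tumor 3 (-0.49, adjusted p = 0.0655).

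Adamts8, Adamts9, Adamts15 and Adamts20 did not pass in either fit. Adamts15, at 34.5 RPKM the most abundant of these, measured 247, 155 and 153 CPM against 197, 213 and 263 CPM. Its blocked log2 fold change was -0.31 ± 0.19 (adjusted p = 0.394). Without tumor 1, in which its ratio had the opposite sign, it was -0.62 (adjusted p = 0.0277). Adamts8, the neighbour of Adamts15 on chromosome 9, had log2 fold changes of 0.07 ± 0.45 unblocked and -0.20 ± 0.28 blocked. Its ratios were -0.53, -0.52 and 1.13 within tumors. The blocked fit without tumor 3, the tumor of opposite sign, gave -0.54 (adjusted p = 0.0465). Leaving out the tumor that differs in sign removes the disagreement, so these values of Adamts15 and Adamts8 are a description.

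Adamts7 and Adamts12 cleave cartilage oligomeric matrix protein (COMP), a matrix protein of cartilage, tendon and fibrotic tissue. Adamts7 (gene 108153, chr9:90162904-90200102) measured 93.2, 77.1 and 75.9 CPM in the negative and 51.9, 36.3 and 27.4 CPM in the positive libraries, without overlap. The estimate was 1.18 ± 0.23 unblocked (adjusted p = 0.0858) and 1.13 ± 0.16 blocked (adjusted p = 0.0039). In the blocked fits without tumor 1, 2 or 3 it was 1.24, 1.15 and 0.97, each with an adjusted p below 0.05. Adamts7 shares 122 exon bases with Tbc1d2b on the opposite strand, which had 81258 counts against 16186 for Adamts7, and the library kit did not mark strand, so their reads there cannot be told apart. Adamts12 was the more abundant gene of the pair (56.6 against 11.3 RPKM), at 367, 385 and 399 CPM against 353, 333 and 280 CPM. Its negative libraries also lay above the positive ones, but the log2 fold change of 0.26 ± 0.13 blocked did not pass (adjusted p = 0.297).

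**Figure D3:**
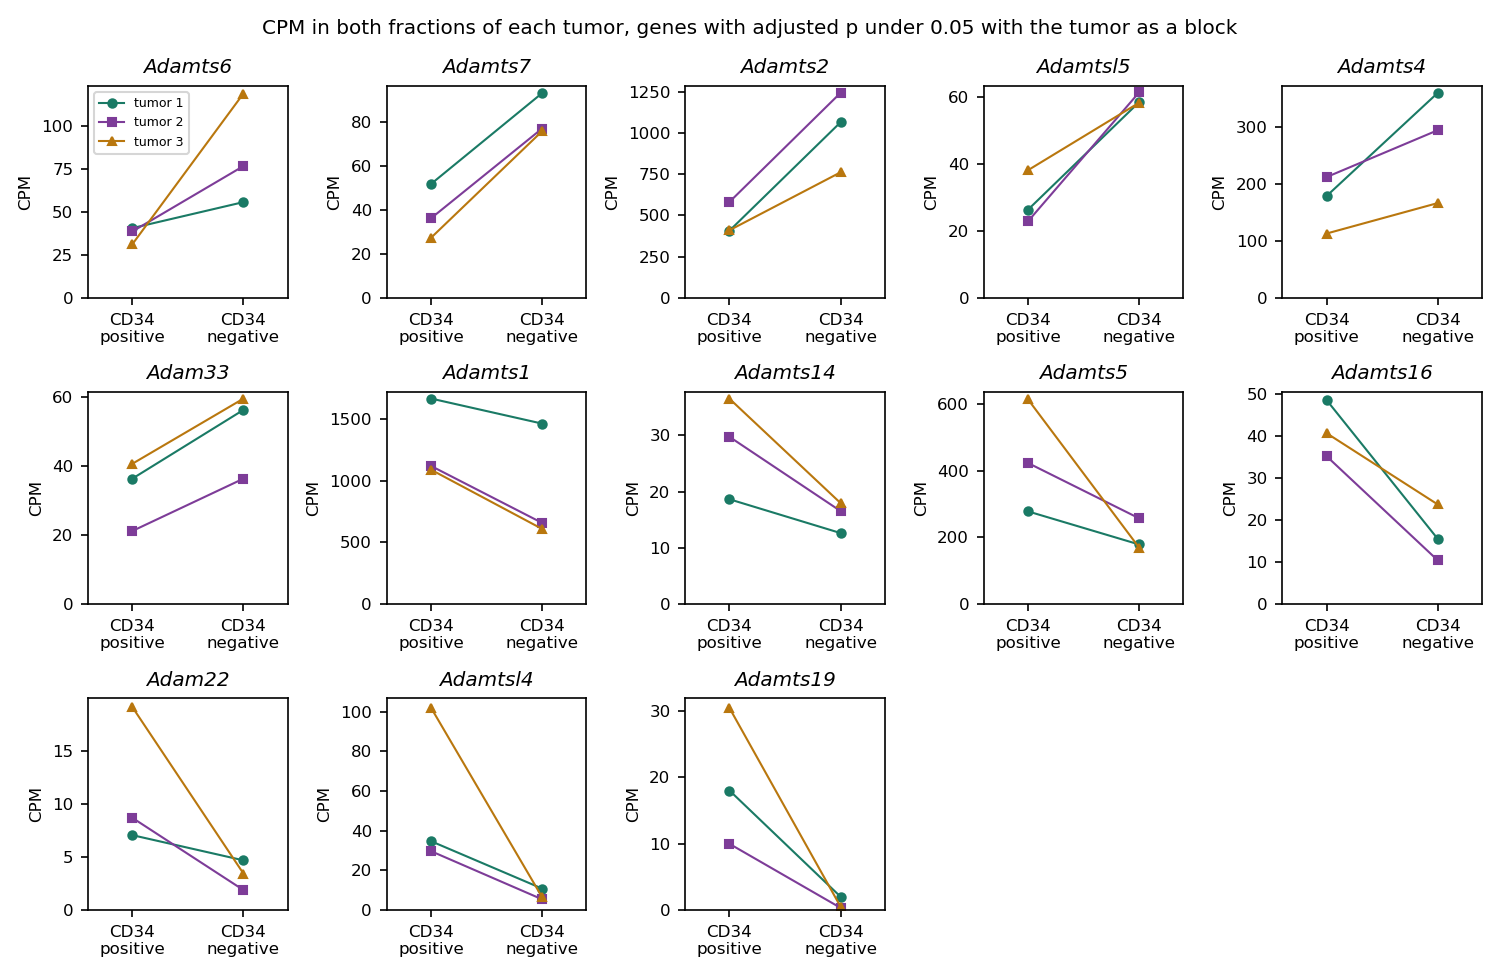
CPM of the 13 members called in the blocked fit, 1 panel each, with a line joining the CD34 positive and CD34 negative library of each tumor. The lines of Adamts2 rise and those of Adamtsl4 and Adamts19 fall from CD34 positive to CD34 negative in all 3 tumors.

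Adamts6, Adamts10, Adamts16, Adamts17, Adamts18 and Adamts19 form 3 pairs of related enzymes. Some of them, Adamts10 and Adamts17 included, are tied to fibrillin microfibrils. Adamts6 (gene 108154, chr13:104286518-104496695) had 55.9, 76.8 and 119 CPM in the negative and 40.7, 38.8 and 31.4 CPM in the positive libraries. The groups did not overlap, and the log2 ratio ranged from 0.45 in tumor 1 to 1.92 in tumor 3. The fitted log2 fold change was 1.12 ± 0.29 unblocked (adjusted p = 0.146), 1.18 ± 0.23 blocked (adjusted p = 0.0152) and 0.77 in the blocked fit without tumor 3 (adjusted p = 0.0131). Its relative Adamts10 measured 88.3, 64.7 and 80.0 CPM against 77.3, 39.6 and 64.0 CPM and did not pass (0.43 ± 0.15 blocked, adjusted p = 0.126).

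Adamts16 (gene 271127, chr13:70727798-70841845) was lower, at 15.6, 10.5 and 23.8 CPM in the negative and 48.6, 35.3 and 40.7 CPM in the positive libraries. The groups did not overlap, with a log2 fold change of -1.37 ± 0.29 unblocked (adjusted p = 0.0967) and -1.38 ± 0.23 blocked (adjusted p = 0.0069). Its relative Adamts18 lay near the detection limit, at 0.997, 0.244 and 0.0275 CPM against 1.98, 0.948 and 2.72 CPM. It was lower in the negative library of each tumor but did not pass (-2.11 ± 1.11 blocked, adjusted p = 0.301).

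Adamts19 (gene 240322, chromosome 18) had the widest difference of all 13. It measured 2.01, 0.332 and 0.523 CPM in the negative libraries, from 113, 15 and 19 counts, and 18.0, 9.97 and 30.4 CPM in the positive libraries. Its log2 fold change reached -4.29 ± 1.15 unblocked (adjusted p = 0.155) and -4.19 ± 0.67 blocked (adjusted p = 0.0065), with ratios from -3.16 in tumor 1 to -5.83 in tumor 3. Adamts17, its relative, followed the tumor, at 30.6, 3.54 and 19.0 CPM against 31.1, 2.29 and 5.72 CPM, and did not pass (0.59 ± 0.35 blocked, adjusted p = 0.365).

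Among the ADAMTS-like genes, a pair of microfibril-binding members went in opposite directions. Adamtsl4 (gene 229595, chr3:95676201-95687927), which is mutated in inherited displacement of the eye lens, measured 10.8, 5.42 and 6.60 CPM in the negative and 34.7, 29.7 and 102 CPM in the positive libraries. The groups did not overlap, and positive library 3 was the highest. Its log2 fold change was -2.63 ± 0.59 unblocked (adjusted p = 0.107) and -2.75 ± 0.39 blocked (adjusted p = 0.0036), and -2.06 without tumor 3 (adjusted p = 3.77e-04). Adamtsl5 (gene 66548, chr10:80339793-80349030) stood at 58.6, 61.5 and 58.4 CPM in the negative and 26.4, 23.0 and 38.2 CPM in the positive libraries, without overlap. Its log2 fold change of 1.10 ± 0.22 unblocked (adjusted p = 0.0858) and 1.09 ± 0.19 blocked (adjusted p = 0.0091) missed the threshold without tumor 2 (0.82, adjusted p = 0.0725).

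Adamtsl1, the most abundant of the 5, was at 118, 118 and 173 CPM against 141, 116 and 173 CPM, with a blocked log2 fold change of -0.07 ± 0.13. Adamtsl2, which binds microfibrils and is mutated in a short-stature syndrome, measured 32.2, 12.6 and 17.8 CPM against 18.7, 9.74 and 2.86 CPM. It was higher in the negative library of each tumor but did not pass (0.88 ± 0.35 blocked, adjusted p = 0.163), with a ratio of 2.63 in tumor 3. Adamtsl3 had a ratio of -0.84 in tumor 1 and of 0.47 and 1.22 in the others (0.44 ± 0.29 blocked, adjusted p = 0.415).

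Of the 8 tested membrane ADAMs with a protease domain, 1 passed in the blocked fit, or 12.5%, near the 8.57% of all genes. Adam33 (gene 110751, chr2:131050819-131063814), a mesenchymal ADAM linked to asthma, measured 56.3, 36.4 and 59.6 CPM in the negative and 36.4, 21.2 and 40.7 CPM in the positive libraries. The groups overlapped, and the log2 ratios within tumors were 0.63, 0.78 and 0.55. The difference amounted on the log2 scale to 0.76 ± 0.31 unblocked (adjusted p = 0.321) and 0.66 ± 0.15 blocked (adjusted p = 0.0290), and it was lost without tumor 1 (0.68, adjusted p = 0.0777) or tumor 2 (0.57, adjusted p = 0.309).

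The best-known sheddases, Adam17 and Adam10, did not pass in either fit. Adam17, which releases TNF and EGF receptor ligands, had 117, 101 and 101 CPM against 132, 115 and 140 CPM, with a blocked log2 fold change of -0.28 ± 0.13 (adjusted p = 0.245). Adam10, which cleaves Notch receptors, had 54.9, 71.8 and 70.5 CPM against 70.1, 88.0 and 91.3 CPM (-0.34 ± 0.13 blocked, adjusted p = 0.155). Both were lower in the negative library of each tumor without passing the threshold.

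Adam9, the most abundant ADAM gene, had 211, 293 and 281 CPM against 215, 283 and 299 CPM, and its blocked log2 fold change was -0.02 ± 0.12. Adam19, or meltrin beta, had 302, 243 and 241 CPM against 253, 239 and 185 CPM (0.22 ± 0.13 blocked, adjusted p = 0.355). Adam12, or meltrin alpha, had 156, 302 and 237 CPM against 199, 385 and 238 CPM (-0.23 ± 0.13 blocked, adjusted p = 0.333). Adam15 had 90.6, 97.2 and 101 CPM against 77.3, 88.7 and 90.5 CPM, with the negative libraries all above the positive ones by a small margin (0.17 ± 0.13 blocked, adjusted p = 0.496). Adam8, an ADAM of leukocytes and osteoclasts, was low at 1.16, 1.44 and 6.79 CPM against 0.681, 0.925 and 0.953 CPM, highest in negative library 3 (1.58 ± 0.72 blocked, adjusted p = 0.232).

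Adam11, Adam22 and Adam23 lack the zinc site and act in adhesion, Adam22 and Adam23 as receptors of LGI proteins in neurons. Adam22 (gene 11496, chr5:8072347-8368312) was lower, at 4.68, 1.88 and 3.44 CPM in the negative and 7.06, 8.69 and 19.1 CPM in the positive libraries, without overlap. In log2 terms the fold change was -1.69 ± 0.52 unblocked (adjusted p = 0.200) and -1.82 ± 0.43 blocked (adjusted p = 0.0308). Adam23 was far more abundant (26.0 against 0.808 RPKM) and followed the tumor, with 259 and 326 CPM in negative and positive library 2 and between 96.9 and 142 CPM in the others. Its blocked log2 fold change was 0.11 ± 0.17, and that of Adam11 was 0.86 ± 0.67.

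The remaining 22 ADAM genes are mostly expressed in testis and sperm, and 4 of them (Adam1a, Adam4, Adam5 and Adam30) passed the filter, with mean levels of at most 1.39 RPKM and no call. Adam1a, the highest of them in negative library 3 at 11.5 CPM, shares 1805 exon bases with Mapkapk5 on its own strand, so its counts are uncertain. Of the 20 members removed by the filter, 12 had no count in any library (Adam3, Adam6a, Adam6b, Adam20, Adam24, Adam25, Adam26a, Adam26b, Adam29, Adam34, Adam34l and Adam39). A count of 0 allows up to 3 counts, or between 0.0351 and 0.186 CPM depending on the library, and how reads of near-identical copies were counted was not given in the sources used here. Adam7, Adam32, Adam1b, Adam28, Adam21, Adam2, Adam18 and Adamts13 had counts but too few to test. Of these, Adam7 had 123 of its 141 counts in negative library 1, and Adamts13, which cleaves von Willebrand factor, had 2 counts in all.

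The variance of the members' log2 CPM was divided between tumor and fraction. The median member had 35.8% of it between tumors and 35.6% between fractions, against 45.5% and 20.6% for all tested genes, as a description. The tumor took the larger share in 20 members, led by Adam9 (97.8%), Adam23 (92.0%), Adamtsl1 (91.4%), Adam12 (88.1%) and Adamts17 (87.5%). The fraction took the larger share in 18 members, led by Adamts19 (86.9%), Adamtsl5 (85.2%), Adamtsl4 (81.9%), Adamts2 (81.4%) and Adamts7 (80.0%). Of the 13 called members, 8 had their widest ratio in tumor 3, which was also so for 64.4% of all genes called with the block. Without tumor 3, to which negative library 3 belongs, the blocked fit called 14 of 41 tested members, against 13.0% of the 15514 genes it tested.

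Inhibitors, carriers, activators and substrates of these proteases were described from 10 lists of 79 genes, 72 of them tested. The unblocked fit called 1 of them, against 0.121% of all genes. The blocked fit called 22, or 30.6% of those tested, against 8.57% of all genes. Of the 22, 14 were higher in CD34 negative CAFs, against 4.32% of all genes, and 8 were lower, against 4.25%. These shares of all genes stand beside each list below. The lists were chosen with earlier results of these data known, so the counts are a description. The unblocked call was Pcsk6, a convertase that removes the prodomain of ADAMTS enzymes. It had 18.0, 21.7 and 15.9 CPM in the negative and 109, 103 and 124 CPM in the positive libraries (log2 fold change -2.60 ± 0.19, adjusted p = 0.0085). Furin, another such convertase, was higher (0.58 ± 0.15 blocked, adjusted p = 0.0488), and the other 2 convertases did not pass. Leaving out negative library 3 or positive library 2 brought the unblocked count in these lists to 0. Each of these fits also called 0 of all the genes it tested (15559 and 15132).

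Of 8 tested genes that carry ADAM17 or ADAM10 to the surface, 2 were higher. Rhbdf2, which encodes the ADAM17 carrier iRhom2, measured 35.2, 47.3 and 33.8 CPM in the negative and 7.61, 10.2 and 3.42 CPM in the positive libraries. Its log2 fold change was 2.35 ± 0.37 unblocked (adjusted p = 0.0686) and 2.40 ± 0.26 blocked (adjusted p = 0.0012). Frmd8, which stabilises iRhom proteins, was also higher (0.92 ± 0.21 blocked, adjusted p = 0.0293). Among 4 tested inhibitors, Timp3, which blocks ADAM17 and the aggrecanases, was higher (1.03 ± 0.27 blocked, adjusted p = 0.0479), with ratios of 0.16, 0.96 and 1.96 within tumors. Lrp1, a receptor that clears ADAMTS4 and ADAMTS5, was higher (0.74 ± 0.13 blocked, adjusted p = 0.0107). None of the 4 genes for thrombospondin-repeat glycosylation passed, and neither did Comp or Vwf.

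Among proteoglycan substrates, Vcan was lower (-0.67 ± 0.12 blocked, adjusted p = 0.0106), as was Dcn (-1.12 ± 0.13, adjusted p = 0.0015), whereas Bgn was higher (0.99 ± 0.18, adjusted p = 0.0123). Of the 10 procollagen genes and processing partners, Col5a2 was higher (0.64 ± 0.13 blocked, adjusted p = 0.0186) and Pcolce2, which enhances removal of the carboxy-terminal propeptide, was lower (-2.83 ± 0.25, adjusted p = 4.92e-04). The other 8 did not pass. Of the 10 microfibril partners, Ltbp2 and Ltbp3 were higher (2.21 ± 0.49 and 0.62 ± 0.12 blocked) and Ltbp1 was lower (-2.04 ± 0.14 blocked). Of 25 tested sheddase substrates, 5 were higher (Cx3cl1, Notch3, Notch1, Pdgfrb and Sdc1) and 3 were lower (Dlk1, Il6ra and Cd44). The blocked log2 fold changes of the higher substrates ranged from 0.80 for Sdc1 to 1.77 for Cx3cl1, and those of the lower ones from -3.43 for Dlk1 to -0.81 for Cd44. Dlk1 had 6.41, 0.686 and 0.165 CPM in the negative and 66.3, 10.6 and 1.34 CPM in the positive libraries. Its groups overlapped, though the negative library was the lower one in each tumor. The unblocked limma-voom fit gave -2.83 ± 2.04 for Dlk1 (adjusted p = 0.565). Pdgfrb and Notch3 are also expressed by pericytes, whose markers Rgs5 and Mcam summed to more CPM in every negative than in any positive library, and the part of pericytes in these values was not tested.

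**Figure D4:**
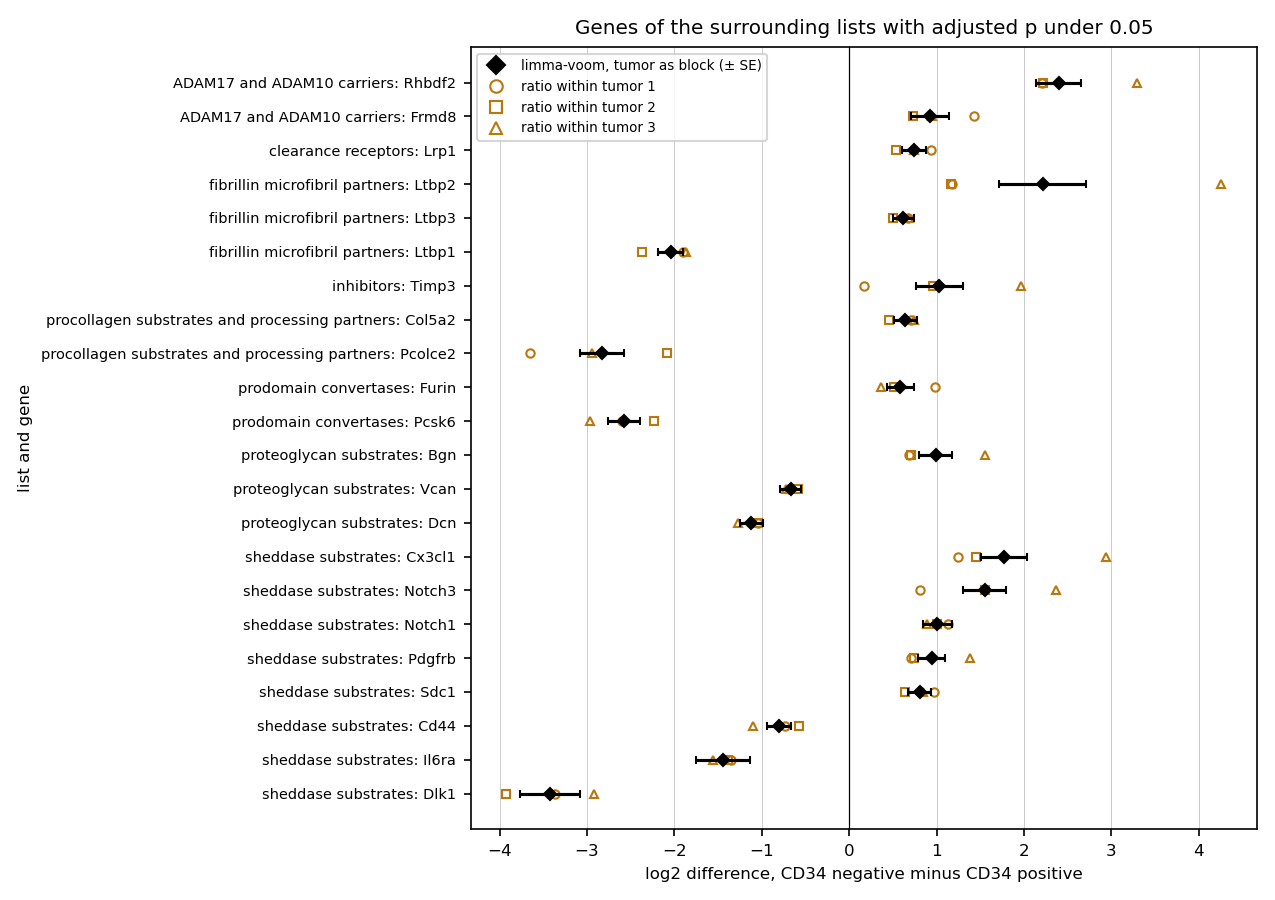
Blocked log2 difference with its standard error (diamonds) and ratios within tumors 1, 2 and 3 (open symbols) for the 22 list genes with an adjusted p under 0.05, grouped by list. The carriers lie above 0, with Rhbdf2 at 2.40, whereas the convertases lie on both sides, with Pcsk6 at -2.58 and Furin at 0.58.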

How the data were processed

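RNA was sequenced from 6 libraries, 3 CD34 negative and 3 CD34 positive, from 3 tumors. The authors aligned reads to GRCm38/mm10 and counted them per gene with featureCounts of Rsubread; the deposited values are raw counts. Strand and multimapping settings are not given in the sources used here, and neither is whether the tumors came from separate mice. Unblocked p-values measure the spread between these libraries, and blocked ones the spread of the fraction difference between these tumors. Both draw on a spread shared over all genes, and neither can be read as a spread between separate mice. The filterByExpr function (minimum count 10) left 14855 genes, and libraries were scaled with TMM (factors 0.941 to 1.04). limma-voom (limma 3.58.1, edgeR 4.0.16, R 4.3.3) was tested two-sided at an adjusted p of 0.05. Alternatives were edgeR, DESeq2 1.42.0, other scalings and filters, quality weights, a length correction and leaving out libraries or tumors. The tests were tried on simulated data. CPM uses TMM-scaled totals; marker sums are of CPM.

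Tumor number, from the sample titles, pairs the libraries, since both fractions were sorted from 1 tumor. Deviations from group means correlated at 0.373, 0.350 and 0.219 in tumors 1, 2 and 3.

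Members and lists were chosen with earlier results of these data known. Values in every library are given for members called in either fit, the 4 most abundant per family, and the 3 per direction with the largest log2 fold change of the same sign in all tumors; further members are given for their role and were chosen after their values were seen. List genes are named where called. Gene positions are from RefSeq GRCm38.p6.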

Additional observations from a re-analysis of the deposited data

How the results depend on the processing

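The count of members called depended on the tumor block. The fit with the replicate block called 13 members, 22 list genes and 1273 genes in all, against 0, 1 and 18 without it. Without the block, DESeq2 called 9 members, 11 list genes and 698 genes, quality weights 2, 3 and 161, edgeR 9 genes and library totals 32 genes. With the block, edgeR called 6 members, 12 list genes and 575 genes, DESeq2 14, 25 and 1733, and the length correction 12, 21 and 1185. Alternatives chosen after seeing the data, also with the block, gave 13, 20 and 1255 with RLE size factors, 13, 21 and 1170 with library totals and 9, 17 and 802 without the low-count filter. Leaving out 1 library in turn without the block gave 0 members, 0 to 1 list genes and 0 to 34 genes. Leaving out 1 tumor with the block gave 9 to 14 members, 17 to 25 list genes and 851 to 2019 genes (1134 without tumor 1). The cause of these shifts was not tested.

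Every called member kept its direction in these fits. Adamts2, Adamts7, Adamts16, Adamts19 and Adamtsl4 passed in all 10 fits with the block, Adamts5, Adamts6 and Adamtsl5 in 9, Adam22 and Adamts4 in 8, Adamts14 in 7, Adam33 in 6 and Adamts1 in 5. The 10 include the fits without 1 tumor, whose p-values are a description. Members that changed sign were not called in the unblocked or blocked fit. Adamts8 had log2 fold changes of -0.20 with the block, -0.20 in edgeR, -0.22 in DESeq2, -0.0037 in DESeq2 with the block, -0.23 with the length correction, -0.21 with RLE size factors or library totals and the block, and -0.18 without the filter and with the block. Without 1 library it ranged from -0.50 to 0.44, and with the block it was -0.070 without tumor 1 and -0.54 without tumor 3. Adam23 had -0.024 in edgeR, -0.034 in DESeq2, -0.18 to 0.66 without 1 library and -0.055 with the block and without tumor 3. Adam9 had 0.014 with quality weights and -0.17 to 0.12 without 1 library. Without 1 library, Adam4 ranged from -2.40 to 0.032, Adamtsl1 from -0.27 to 0.076, Adamtsl3 from -0.0074 to 0.71 and Adam12 from -0.41 to 0.041. With the block, Adam4 was 0.66 and Adamts20 -0.13 without tumor 3, and Adamtsl1 was 0.020 without tumor 1. Without the block, fits lacking 1 library compare 2 libraries with 3. DESeq2 gave no adjusted p for Adam4 and Adam30 with or without the block, nor for Adamts18 without it. Depth limits what can be said of members with CPM values below about 1, such as Adamts18, Adam4 and Adam30. It also limits the size of the difference of Adamts19, a called member, at 0.332 and 0.523 CPM in negative libraries 2 and 3.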

Other observations

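Ratios of related members within a library do not depend on the scaling of that library. The pairs below were chosen after their values were seen, so the ratios are a description. The RPKM ratio of Adamts4 to Adamts5 was 4.44, 2.52 and 2.17 in the negative and 1.42, 1.11 and 0.407 in the positive libraries of tumors 1, 2 and 3. That of Adamts2 to Adamts14 was 117, 104 and 58.8 against 30.4, 27.2 and 15.6. For Adamtsl5 to Adamtsl4 it was 8.10, 17.0 and 13.3 against 1.14, 1.16 and 0.562. That of Adamts7 to Adamts12 was 0.296, 0.234 and 0.222 against 0.171, 0.127 and 0.114. In these 4 pairs the negative libraries all lay above the positive ones. In 2 other pairs the groups overlapped, Adamts6 to Adamts10 at 0.534, 1.00 and 1.26 against 0.445, 0.826 and 0.413, and Adam9 to Adam17 at 2.00, 3.20 and 3.06 against 1.79, 2.74 and 2.37. Within each tumor, the ratio of these 2 pairs was also higher in the negative library.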
